A study of Mus musculus with 16 samples.

Results

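The DNA replication and S phase genes described here are 41 genes, chosen by name for their roles in origin licensing, the replisome, nucleotide supply and the G1/S transition, out of 24411 genes in the count table. All 41 are in the table. Expression was measured by RNA sequencing of muscle stem cells (MuSCs) sorted from mouse skeletal muscle, in 4 groups of 4 libraries. Control MuSCs, whose genotype is given as wild type, and TRF2 MuSC-cKO MuSCs, in which floxed Terf2 is deleted by a tamoxifen-inducible Cre recombinase driven from Pax7, came either from uninjured muscle or from tibialis anterior muscle 3 days after 10 µl of notexin, a snake toxin that destroys myofibers (3 DPI). The series describes the libraries as biological replicates, the ages are not given in the labels, and Cre driven from Pax7 acts only in cells that express Pax7. The sort kept cells negative for CD45, CD31, CD11b and Sca1 and positive for VCAM1 or CD34 and for α7-integrin. Values are CPM, the counts scaled to library size after TMM normalization, and a gene is called when the adjusted p-value of edgeR's quasi-likelihood test is under 0.02 and the fold change over 1.5.

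Before a cell copies its DNA, the origin recognition complex, Cdc6 and Cdt1 load the MCM helicase on origins. In S phase, Cdc45 and the GINS complex switch the helicase on, polymerases copy both strands on the Pcna clamp, and ribonucleotide reductase with thymidylate synthase and thymidine kinase supplies nucleotides. Most MuSCs of uninjured muscle are quiescent and enter the cell cycle after injury. Many replication genes are targets of E2F transcription factors, which the RB protein family holds back in quiescent cells.

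Promoter sequences are shown as background, and whether their letters relate to the changes after injury was not tested. RefSeq windows on GRCm38.p6, from 250 bases before to 50 bases after a gene's start, were matched for 32 of the 41 genes. The E2F letters searched on both strands, TTTCCCGC, TTTCGCGC, TTTGCCGC and TTTGGCGC, were in the windows of 11 of the 32 genes (34.4%), against 25.6% of 39 matched further replication genes, 4.55% of the 22 matched mitosis genes and 2.32% of 27025 mouse genes. The CHR letters TTTGAA and TTCGAA were in 18.8% of the 32 genes, 15.4% of the further replication genes, 77.3% of the mitosis genes and 19.4% of all genes. The CCAAT letters were, in the same order, in 65.6%, 41%, 81.8% and 37.9%. These are matches of letters, not sites of binding. The 160 bases before the start are printed for 3 genes with E2F letters in that stretch, Mcm5, Mcm6 and Pola1, and for 2 without, Mcm2 and Rrm1, with the E2F letters in capitals.
Mcm5, chr8:75109349-75109508, plus strand: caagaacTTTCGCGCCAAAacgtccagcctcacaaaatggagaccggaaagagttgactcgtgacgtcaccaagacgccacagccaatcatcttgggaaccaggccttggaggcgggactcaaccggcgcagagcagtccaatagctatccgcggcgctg
Mcm6, chr1:128359706-128359865, minus strand: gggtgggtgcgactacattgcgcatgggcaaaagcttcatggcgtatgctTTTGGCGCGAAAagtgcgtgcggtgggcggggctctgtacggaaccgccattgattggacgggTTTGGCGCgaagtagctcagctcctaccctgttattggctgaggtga
Pola1, chrX:93632156-93632315, minus strand: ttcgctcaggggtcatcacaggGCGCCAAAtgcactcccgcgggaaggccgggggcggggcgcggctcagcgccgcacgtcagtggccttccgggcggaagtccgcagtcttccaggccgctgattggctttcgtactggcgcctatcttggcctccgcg
Mcm2, chr6:88898781-88898940, minus strand: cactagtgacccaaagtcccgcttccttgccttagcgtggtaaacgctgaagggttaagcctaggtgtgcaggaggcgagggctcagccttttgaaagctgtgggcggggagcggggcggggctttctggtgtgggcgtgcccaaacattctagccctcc
Rrm1, chr7:102441535-102441694, plus strand: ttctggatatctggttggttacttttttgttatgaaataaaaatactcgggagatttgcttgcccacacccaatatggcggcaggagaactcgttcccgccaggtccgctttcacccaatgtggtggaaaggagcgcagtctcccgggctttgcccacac
In Mcm5 the capitals begin 153 and 149 bases before the start and overlap each other. In Mcm6 they begin 110, 106 and 47 bases before it, and in Pola1 138 bases before it. Mcm2 and Rrm1 rose after injury in control MuSCs without these letters in the window, and Pola1, which has them, did not pass the test there.

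Library totals ran from 620506 to 1351130 estimated counts, so that the mean count of a replication gene was low: the median over the 41 genes was 15.75 counts in uninjured control MuSCs and 31 at 3 DPI, and 12 of the 41 had a mean under 10 in each uninjured group. At 3 DPI, replicate 3 of the libraries labelled TRF2 MuSC-cKO stood apart, with 15387 genes detected against 19996 to 21879 in the other 15 libraries and with 13 of the 41 genes at 0 against at most 3. The main counts of replication genes that rest on it are given with and without it. Terf2, the targeted gene, was at 66.3 to 94.5 CPM in uninjured control and 27.2 to 58.7 CPM in uninjured TRF2 MuSC-cKO MuSCs, which did not overlap, although Terf2 missed the threshold (log2 fold change -0.62 ± 0.27 SE, adjusted p = 0.199). At 3 DPI it was at 35.5 to 48.6 CPM in control and 21.9 to 89.7 CPM in the libraries labelled TRF2 MuSC-cKO, so that Terf2 was not lower there. These counts do not separate transcripts with the deleted part from those without it.

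**Figure D1:**
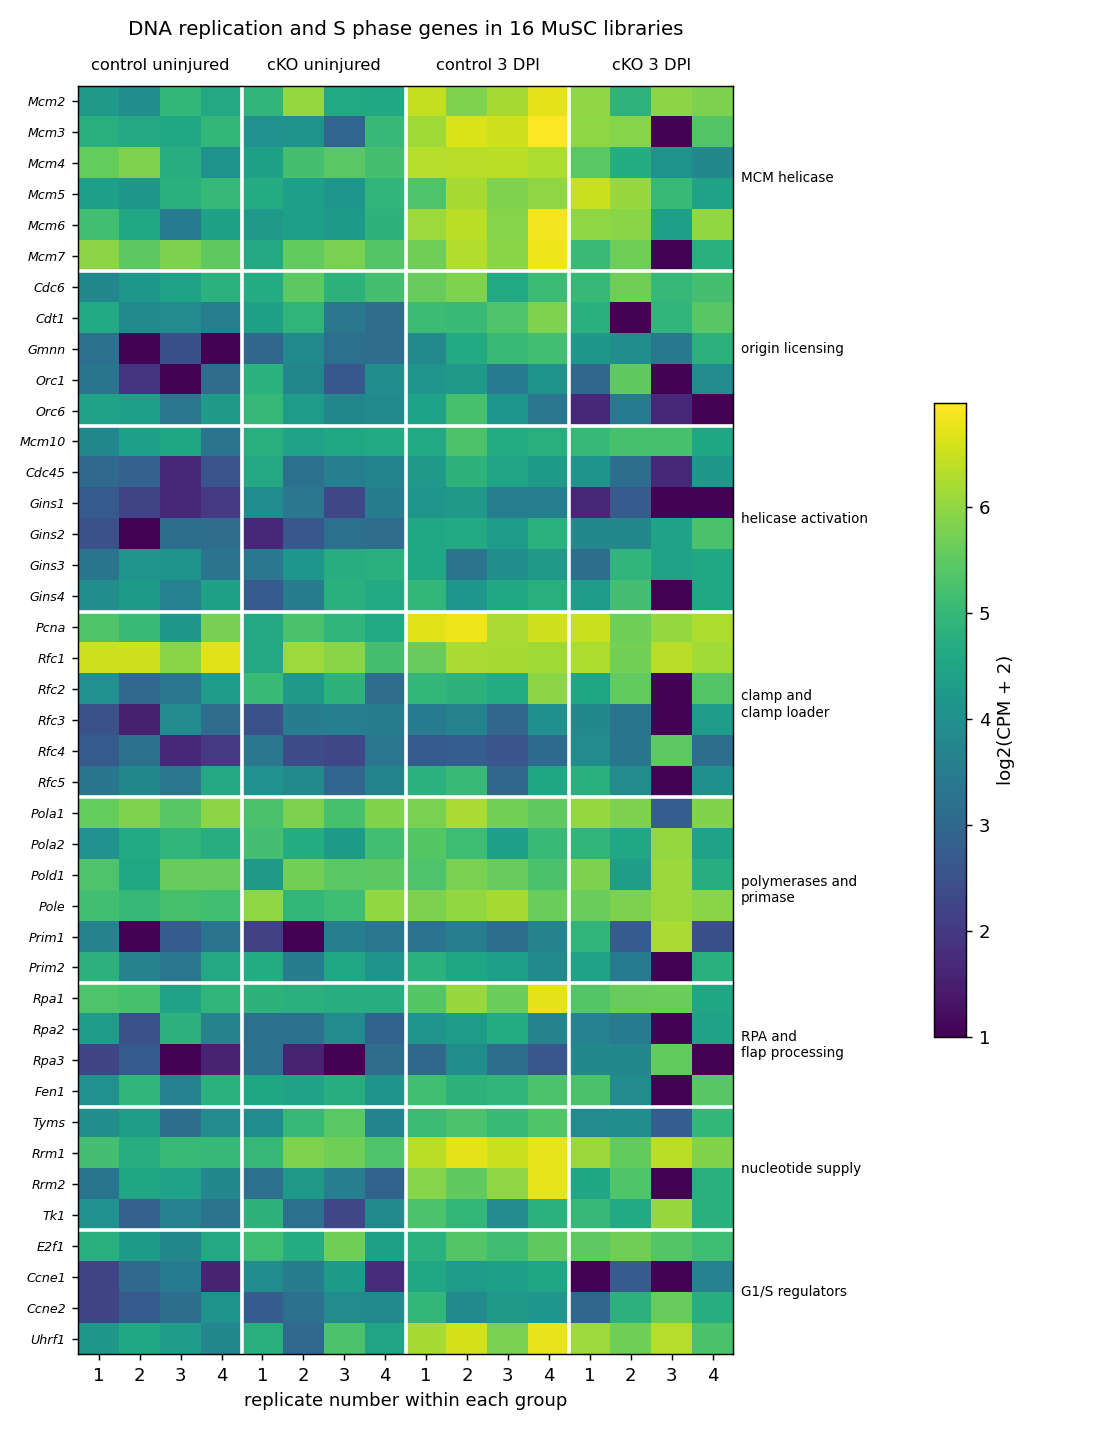
Level of each of the 41 genes (rows, by role) in each of the 16 libraries (columns, by group and replicate number), as log2(CPM + 2). Most MCM and nucleotide supply genes are on average brightest in the 4 control libraries at 3 DPI, and 13 genes are at 0 in the third library labelled TRF2 MuSC-cKO at 3 DPI.

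The first comparison asked how the replication genes of control MuSCs differ between 3 DPI and uninjured muscle. Of the 41 genes, 37 had enough counts to be tested, 20 rose and none fell, where 10.8% of the 15356 genes tested rose and 9.46% fell. The median log2 fold change was 1.17 over the 37 genes and 0.07 over all genes tested. For 21 of the 37 genes every 3 DPI library lay above every uninjured one, which held for 12% of all genes. Without a filter on low counts, 19 of all 41 genes rose, against 6.93% of 23576 genes. The untested genes were Orc1, Rfc4, Prim1 and Rpa3. The count of 20 depended on the fit: it was 12 of 17 tested with at least 10 counts in every library (14% of all genes), 11 of 40 in the rescaled table (6.06%) and 7 of 38 with all 16 libraries in 1 fit (5.12%), and no replication gene fell in any of these. Of the 20 genes, 17 were called in at least 13 of 19 alternatives, Tk1 in 9, Gins1 in 6 and Pole in 5. Without control 3 DPI replicate 4 the calls of Cdt1, Gins1, Rfc2, Rpa1, Tk1 and Ccne1 were lost. Those of Gins1, Tk1 and Ccne1 were also lost without uninjured control replicate 4.

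The sample records carry a code shared by 3 or 4 libraries, whose meaning is not given. Within the 1 code that holds control libraries of both injury states, 1 uninjured against 2 at 3 DPI, 0 of 41 genes were called by edgeR, where 0.943% of all genes were higher and 0.968% lower. There 8 of the 41 were higher and 0 lower at an unadjusted p under 0.05, against 4.98% and 4.95% of all genes, and the median log2 fold change was 0.94 against 0.06. Within the code that holds TRF2 MuSC-cKO libraries of both states the median was 0.43 with 0 called (0.457% of all genes higher, 0.836% lower), and 1 was higher and 3 lower at an unadjusted p under 0.05, against 6.07% and 9.18% of all genes. The injured libraries of that code are replicate 4 and replicate 3, the library that stood apart, against 1 uninjured library. Within the code that holds both genotypes at 3 DPI the median was -0.34, 0 of the 41 and 0% of all genes were called, and 0 were higher and 3 lower at an unadjusted p under 0.05, against 0.802% and 1.53%. In uninjured MuSCs each code holds 1 genotype, so code and genotype cannot be told apart there.

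The rise came with a change in cell markers. Summed over 12 myeloid markers, which include Ptprc (CD45) and Itgam (CD11b), the level was 108 to 138 CPM in uninjured control MuSCs and 5309 to 6773 CPM at 3 DPI, and 12 of 12 markers rose. No myeloid marker had a library at 0 at 3 DPI, and Itgam was at 334 to 457 CPM. Summed over 8 MuSC markers the level went from 2689 to 4542 CPM to 741 to 1066 CPM, and 8 of 8 fell, with Pax7 at 769 to 1487 CPM before and 128 to 184 CPM after. Summed over 8 fibroadipogenic markers, of which Ly6a encodes Sca1, the level went from 656 to 1190 CPM to 2454 to 3600 CPM, with 6 of 8 higher (Pdgfra, Ly6a, Dcn, Lum, Col1a1 and Col1a2) and 1 lower (Dpt). The part of these cells in the rise of the replication genes was not tested. In RNA of bulk samples, more or fewer cells of a type and more or less RNA per cell cannot be told apart.

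Of the MCM genes, which encode the 6 subunits of the replicative helicase, 5 of 6 rose in control MuSCs. Mcm3 was at 25.0, 22.5, 22.1 and 29.3 CPM in the uninjured libraries and at 68.0, 97.3, 91.5 and 124 CPM at 3 DPI. The groups did not overlap, and the difference was 1.99 ± 0.27 on the log2 scale (SE, adjusted p = 5.5e-08). Mcm2 went from 17.0, 13.5, 29.1 and 22.4 CPM to 84.9, 54.5, 71.8 and 104 CPM, also without overlap (log2 fold change 1.99 ± 0.30, adjusted p = 8.1e-07). Mcm4 was at 14.6 to 54.9 CPM before and within the narrow range of 73.2 to 80.7 CPM at 3 DPI, a rise of 1.17 ± 0.29 (adjusted p = 0.00161). Mcm5 and Mcm6 rose by 1.38 and 1.94 on the log2 scale. Mcm7 was not called, at 42.3 to 59.9 CPM before and 49.4 to 111 CPM after (log2 fold change 0.62, adjusted p = 0.0788), and it shares exons with Mir25 and Mir93 on its own strand and with Ap4m1 and Cops6 on the other, so its count is uncertain.

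Among the licensing genes, Gmnn, which encodes geminin, the inhibitor that keeps Cdt1 from loading the helicase a second time, was at 7.15, 0, 3.49 and 0 CPM in uninjured control MuSCs and at 12.4, 23.3, 30.5 and 33.7 CPM at 3 DPI. The groups did not overlap, and the fitted log2 fold change of 3.23 ± 0.64 (adjusted p = 1.2e-04) rests on uninjured libraries with few counts or none. Cdt1 rose by 1.46. Cdc6, the loader of the helicase, fell just short of the threshold, at 11.6, 16.2, 19.8 and 26.3 CPM before and 46.3, 54.5, 22.6 and 32.1 CPM after, with overlap (log2 fold change 1.10 ± 0.36, adjusted p = 0.0202). Orc6, a subunit of the origin recognition complex, was at 8.14 to 19.7 CPM and 8.23 to 36.0 CPM, ranges that overlapped.

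Of the genes that activate the helicase, Cdc45, Gins1 and Gins2 rose, and Mcm10, Gins3 and Gins4 were not called. The Gins1 call held in 1 of the 8 fits that each left out 1 library, the one without uninjured control replicate 1. Gins2, a GINS subunit, was at 3.57, 0, 6.98 and 6.83 CPM before and 21.6, 23.3, 17.7 and 26.3 CPM after injury, without overlap (log2 fold change 2.41 ± 0.58, adjusted p = 0.00122). Mcm10, an initiation factor that binds the helicase, was at 7.80 to 20.9 CPM before and at 23.2, 37.9, 23.6 and 24.7 CPM after. Its groups did not overlap, although Mcm10 missed the threshold (log2 fold change 0.93 ± 0.41, adjusted p = 0.0957).

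Pcna, the sliding clamp, rose from 39.3, 30.6, 16.3 and 51.7 CPM to 104, 111, 72.8 and 91.3 CPM, without overlap (log2 fold change 1.48 ± 0.27, adjusted p = 2.3e-05). Reads of Pcna may be shared with the pseudogenes Pcna-ps1 and Pcna-ps2. Of the clamp loader genes Rfc2 rose by 1.64, whereas Rfc1, the large subunit, was the one tested gene of the 37 with an estimate below 0. Rfc1 was at 92.0, 91.8, 58.1 and 101 CPM before and 46.3, 72.9, 71.8 and 67.5 CPM after, with overlap (log2 fold change -0.36 ± 0.23, adjusted p = 0.315).

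The polymerase and primase genes moved least, with 1 of 5 tested genes called and a median log2 fold change of 0.24. Pole, the catalytic subunit of the leading strand polymerase, was at 34.0, 29.7, 36.0 and 34.1 CPM before and 54.1, 62.2, 71.8 and 46.9 CPM after, without overlap (log2 fold change 0.85 ± 0.28, adjusted p = 0.0179). That call was lost in 14 of 19 alternatives. Pola1, Pola2, Pold1 and Prim2 had log2 fold changes of 0.17 to 0.47, with 95% intervals that reached from -0.66 at the lowest to 1.20 at the highest.

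Rpa1, the large subunit of the single-strand binding protein RPA, was at 38.4, 36.0, 19.8 and 28.3 CPM before and 40.2, 65.2, 47.2 and 104 CPM after (log2 fold change 1.11 ± 0.30, adjusted p = 0.00388). The groups did not overlap, by a narrow margin, and without control 3 DPI replicate 4, the highest library, the gene was not called. It shares exon sequence with Gm47300 on the same strand. Rpa2 and Fen1, the flap endonuclease, were not called.

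All 4 genes of nucleotide supply rose in control MuSCs. Rrm1, the large subunit of ribonucleotide reductase, was at 34.8, 24.3, 31.4 and 30.2 CPM before and 80.3, 105, 88.5 and 106 CPM after, without overlap (log2 fold change 1.70 ± 0.25, adjusted p = 5.9e-07). Rrm2, its small subunit, rose by 2.20, Tk1, thymidine kinase, by 1.48 and Tyms, thymidylate synthase, by 1.47 on the log2 scale. Tk1 was at 14.3, 5.40, 10.5 and 7.80 CPM before and 37.1, 29.2, 12.8 and 26.3 CPM after, with overlap. Its call was lost in 5 of the 8 fits that left out 1 library, those without uninjured control replicates 2 and 4 and without 3 DPI replicates 1, 2 and 4. Tyms has a pseudogene, Tyms-ps, that could share reads.

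Of the G1/S regulators, Uhrf1, which brings the maintenance DNA methyltransferase to newly copied DNA, had the smallest p-value of the 41 genes. It was at 16.1, 21.6, 17.4 and 11.7 CPM before and 71.0, 94.3, 53.1 and 109 CPM after, without overlap (log2 fold change 2.33 ± 0.30, adjusted p = 3.7e-08). Ccne1, a cyclin of the G1/S transition, rose by 2.07 on the log2 scale, a call that held in 13 of 19 alternatives. In TRF2 MuSC-cKO MuSCs Ccne1 had too few counts to be tested after injury. E2f1 and Ccne2 had estimates of 0.95 and 1.38 and were not called (adjusted p = 0.0407 and 0.0613).

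**Figure D2:**
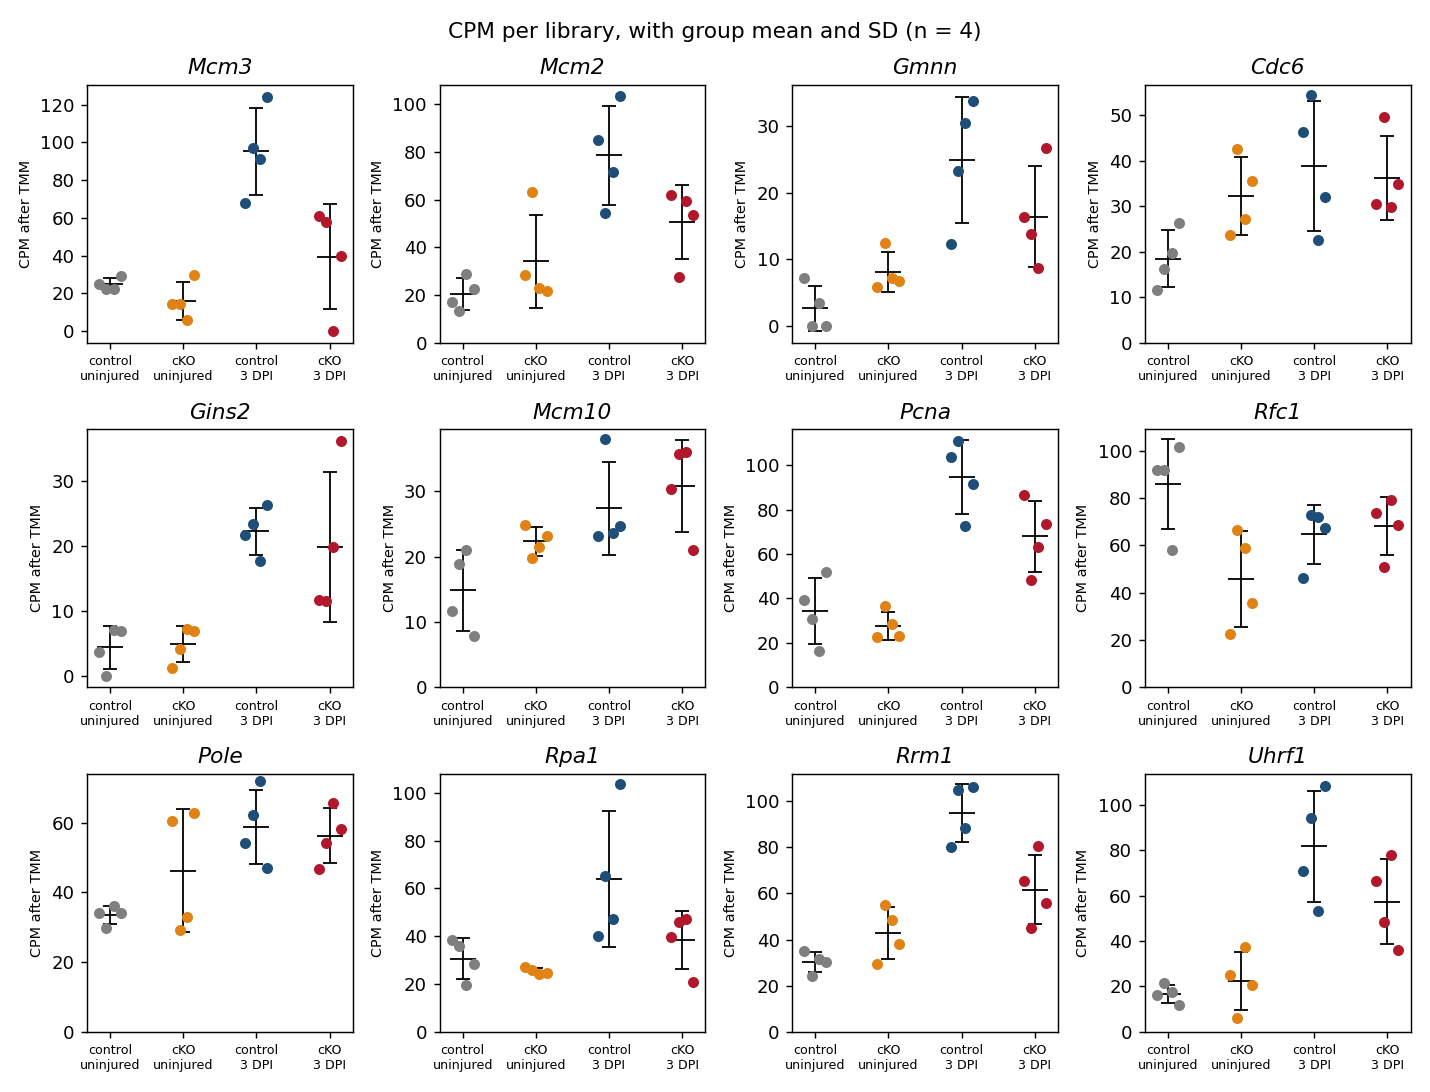
CPM of 12 genes named by role in each library (points), with the group mean and SD (bars, n = 4). For Mcm3, Mcm2, Gins2, Pcna, Pole, Rrm1 and Uhrf1 the 4 control libraries at 3 DPI lie above the 4 uninjured control libraries, whereas Rfc1 does not rise.

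Levels were also divided by the length of all annotated exons of a gene together, which is not the length of a single transcript. That length was 11012 bases for Rrm1 and 1349 for Gins4, and it bears on the ranking. Per kilobase of exon, the highest mean levels in control MuSCs at 3 DPI were those of Pcna (39.4 CPM per kb), Mcm3 (25.4), Rrm2 (24.2), Mcm4 (21.6) and Uhrf1 (19.2). In uninjured control MuSCs Pcna (14.4 CPM per kb), Rfc1 (14.3), Mcm7 (11.3) and Gins4 (11.2) led. Rfc1, which was among the highest genes before injury, was at 10.7 CPM per kb after it.

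Other genes of the same processes were read beside the 41. Of 46 further replication genes, 43 were tested and 8 rose, where 10.8% of all genes tested did, with a median log2 fold change of 0.64. Among the 8 were Samhd1, which degrades dNTPs (2.56), Lig1, the ligase that joins Okazaki fragments (1.58), and Dnmt1, the maintenance methyltransferase (1.12). Of 26 mitosis genes 23 rose, with a median of 1.67, and the 3 of smallest p were Top2a, a topoisomerase (3.33), Mki67, the proliferation marker Ki-67 (2.48), and Cenpe, a kinetochore motor (1.59). Of 29 genes of the E2F and RB network 4 rose and 3 fell, near the shares of all genes (10.8% and 9.46%). The former included Ccna2, the cyclin of S and G2 phase (3.15), and the latter were Ccnd3, a D-type cyclin (-1.19), Cdkn1b, the inhibitor p27 (-1.23), and Tfdp2, a partner of E2F proteins (-0.98).

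The second comparison made the same contrast in TRF2 MuSC-cKO MuSCs. None of the 30 replication genes tested was called by edgeR in either direction, where 2.43% of the 14578 genes tested rose and 1.61% fell. At an unadjusted p under 0.05, 4 of the 30 were higher and 0 lower, where 8.66% and 7.72% of all genes were. DESeq2 and limma-voom called 0, and limma's robust fit called 1, Mcm6. Of all genes these fits, in that order, called 3.9%, 1.63% and 3.75% higher and 2.92%, 1.8% and 3.24% lower. The median log2 fold change was 0.32 over the 30 genes and 0.01 over all genes tested, and the median standard error was 0.55, against 0.37 in control MuSCs.

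Summed over the 41 genes, the level was 794, 892, 879 and 840 CPM in the uninjured TRF2 MuSC-cKO libraries and 1320, 1186, 1133 and 1175 CPM in the libraries labelled TRF2 MuSC-cKO at 3 DPI. The groups did not overlap. In control MuSCs the sum was 839, 760, 703 and 841 CPM before and 1529, 1760, 1457 and 1914 CPM after injury, so that the 3 DPI libraries of the control lay above all others.

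**Figure D3:**
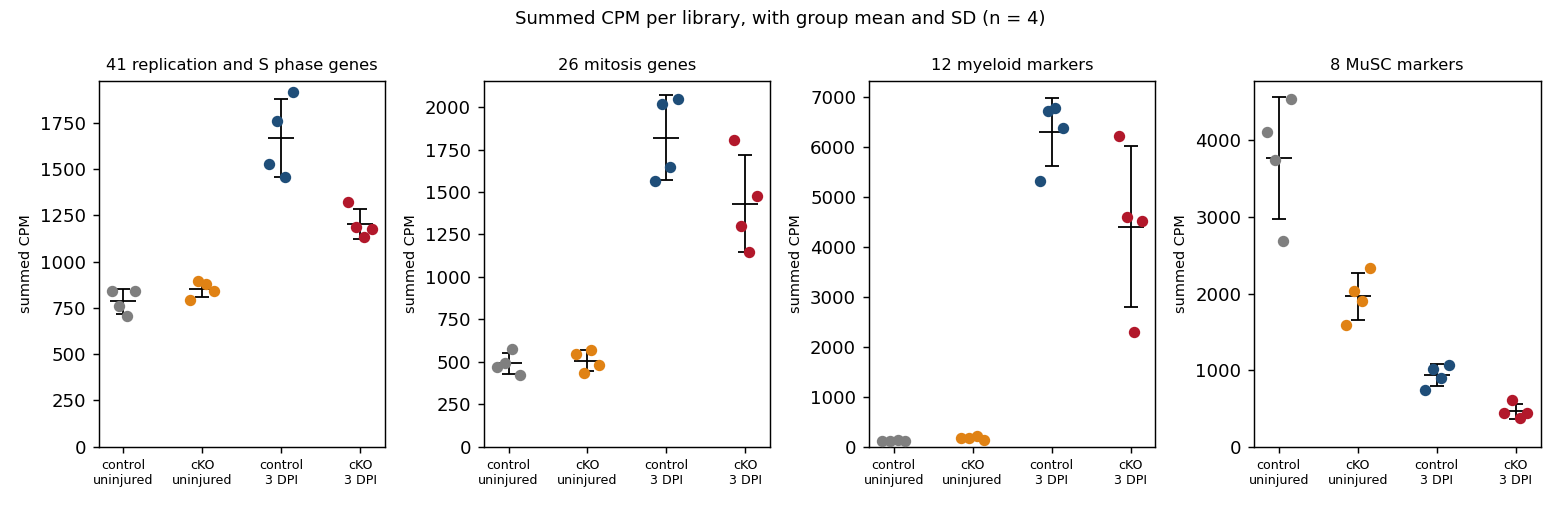
Summed CPM per library of the 41 replication and S phase genes, 26 mitosis genes, 12 myeloid markers and 8 MuSC markers, with group mean and SD (bars, n = 4). The replication sum at 3 DPI is 1457 to 1914 CPM in control libraries and 1133 to 1320 CPM in libraries labelled TRF2 MuSC-cKO. The MuSC marker sum does not overlap between those groups either, at 741 to 1066 CPM and 369 to 604 CPM. The ranges of the mitosis and myeloid sums overlap between them.

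Pcna had the smallest p-value in this contrast. It was at 22.5, 36.4, 28.6 and 23.2 CPM in uninjured and 86.5, 48.4, 63.2 and 73.4 CPM in the 3 DPI libraries, without overlap (log2 fold change 1.22 ± 0.39, adjusted p = 0.0937). Pcna was the 1 tested gene of the 30 whose libraries did not overlap, where 6.9% of all genes tested had higher libraries without overlap. Gins2 was not tested for low counts, and went from 1.18, 4.16, 7.16 and 6.81 CPM to 11.7, 11.5, 19.8 and 36.1 CPM.

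Replicate 3 of the 3 DPI libraries decided part of this count. Mcm3 was at 14.2, 14.5, 5.73 and 30.0 CPM in uninjured libraries and at 60.8, 57.7, 0 and 39.6 CPM at 3 DPI, where the 0 is replicate 3. Without that library Mcm3, Mcm6 and Pcna were called higher, 3 of 32 genes tested against 5.16% of all genes, with log2 fold changes of 1.66 ± 0.46, 1.57 ± 0.39 and 1.28 ± 0.37. The median over the 32 genes was then 0.44. Of the 32, 6 were higher and 0 lower at an unadjusted p under 0.05, against 11.7% and 9.63% of all genes, and 5 had higher libraries without overlap, against 11.5%.

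Rfc1, Mcm10 and Cdc6 were not called either. Rfc1 was at 22.5, 66.5, 58.7 and 35.4 CPM before and 73.6, 50.7, 79.3 and 68.7 CPM after (log2 fold change 0.51 ± 0.40). Mcm10 was at 24.9, 19.7, 21.5 and 23.2 CPM and at 30.4, 35.8, 36.0 and 21.0 CPM (0.40 ± 0.48). Cdc6 was at 23.7, 42.6, 27.2 and 35.4 CPM and at 30.4, 49.6, 29.8 and 35.0 CPM (0.10 ± 0.43). In each of these genes the libraries of both groups overlapped.

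In the same libraries 3 of 24 tested mitosis genes rose, Mki67 by 2.38, Top2a by 2.84 and Cenpe by 1.87 on the log2 scale, and the median of the list was 1.07. Of the further replication genes Dnmt1 (1.77) and Samhd1 (1.5) rose. The summed myeloid markers went from 140 to 220 CPM to 2306 to 6208 CPM, with 10 of 12 markers called higher, and their part in these values was not tested. The summed MuSC markers went from 1592 to 2328 CPM to 369 to 604 CPM, and the summed fibroadipogenic markers from 709 to 1490 CPM to 1977 to 3925 CPM, with 2 of 8 called higher, Col1a1 and Col1a2. Without replicate 3, 5 of 25 mitosis genes rose, with Mki67 at 2.34, Top2a at 2.87 and Cenpe at 2.15, while Dnmt1 (1.70) and Samhd1 (1.60) stayed called. The other 3 libraries had summed myeloid markers of 4516 to 6208 CPM and summed MuSC markers of 439 to 604 CPM.

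**Figure D4:**
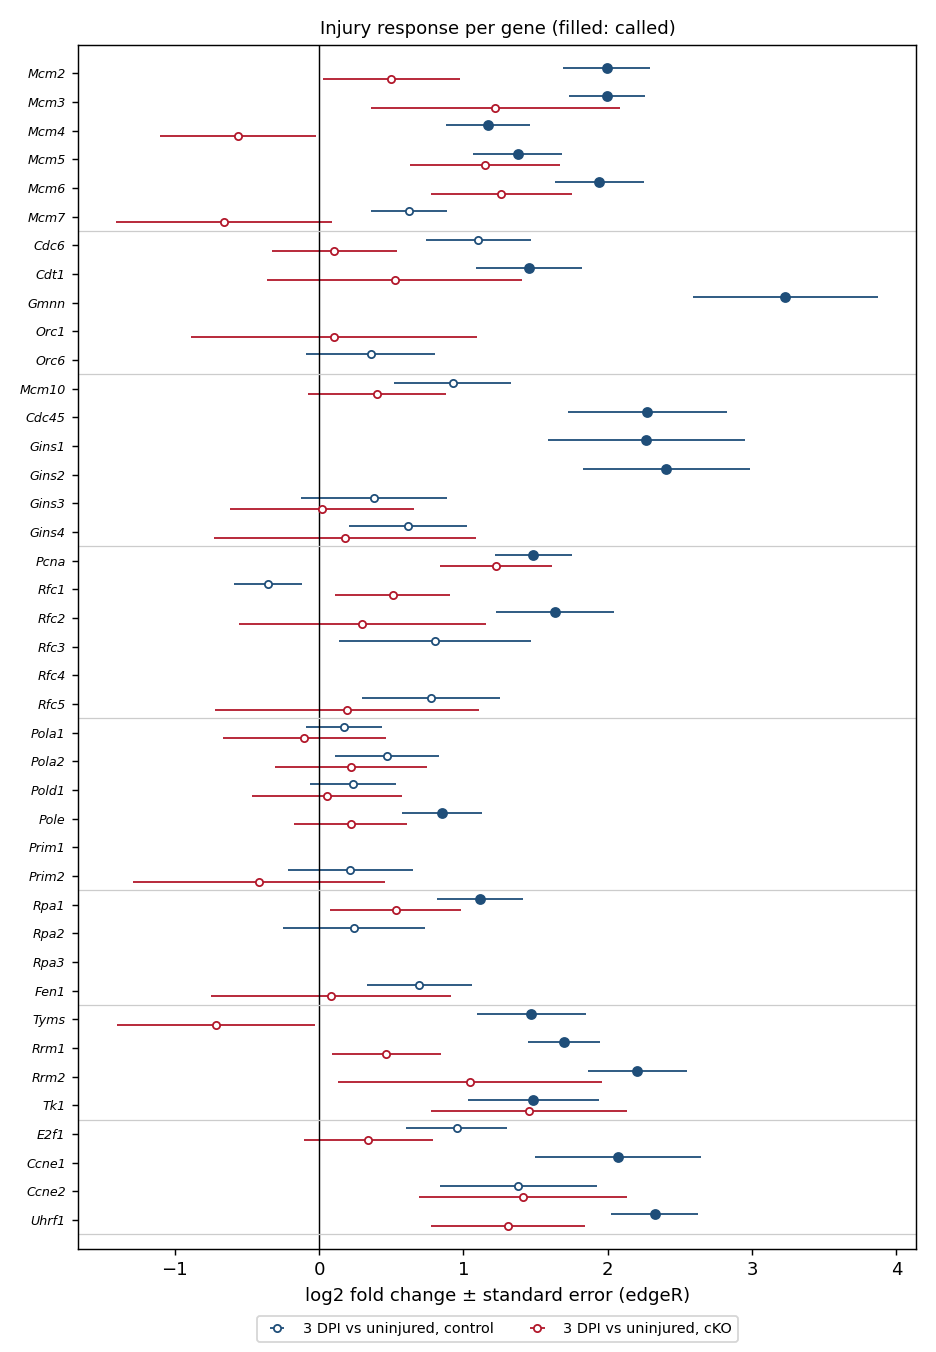
Log2 fold change between 3 DPI and uninjured muscle for each tested gene, with its standard error, in control MuSCs (blue) and in TRF2 MuSC-cKO MuSCs (red), where filled points are called. The 20 filled points are all in control MuSCs, and the red bars are wider.

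The third comparison set the genotypes against each other in uninjured MuSCs. None of 27 replication genes tested was called by edgeR, where 0.584% of the 14048 genes tested were higher and 2.63% lower in TRF2 MuSC-cKO MuSCs. At an unadjusted p under 0.05, 4 were higher and 1 lower, where 8.98% and 10.5% of all genes were, and DESeq2, limma-voom and limma's robust fit each called 0. Of all genes these fits, in that order, called 0.812%, 0.577% and 1.12% higher and 3.62%, 2.71% and 1.01% lower. The median log2 fold change was 0.15, against 0.06 over all genes. The summed level did not separate the genotypes after TMM scaling, as the values above show. With library size alone it was 648 to 695 CPM in control and 840 to 922 CPM in TRF2 MuSC-cKO MuSCs, which did not overlap, so the placing of the sums depends on the scaling.

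The smallest p-value was that of Rfc1, at 58.1 to 101 CPM in control and 22.5 to 66.5 CPM in the TRF2 MuSC-cKO libraries (log2 difference -0.78 ± 0.28, adjusted p = 0.105). Mcm2 was at 13.5 to 29.1 CPM in control and at 28.4, 63.4, 22.9 and 21.8 CPM in TRF2 MuSC-cKO MuSCs, where replicate 2 was far above the rest. Cdc6 was at 11.6 to 26.3 CPM and 23.7 to 42.6 CPM. For these 3 genes the genotypes overlapped.

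Some genes of the E2F and RB network differed between genotypes in uninjured MuSCs. Cdkn1a, which encodes the inhibitor p21, was at 87.3 to 125 CPM in control and 432 to 579 CPM in the TRF2 MuSC-cKO libraries (log2 difference 2.37 ± 0.20, adjusted p = 3.5e-11). The D-type cyclins Ccnd1 (-1.64) and Ccnd3 (-1.51), their kinase Cdk4 (-1.32) and the inhibitor Cdkn1c (-1.25) were lower. These 5, 1 higher and 4 lower, were the called genes among 28 tested in the list, where 0.584% of all genes were higher and 2.63% lower. Cdkn1a and Ccnd3 kept their calls in all 18 alternatives, whereas Ccnd1 and Cdkn1c each lost theirs in 3 of 18 and Cdk4 in 7 of 17. Cell markers differed as well. The summed MuSC markers were 2689 to 4542 CPM in control and 1592 to 2328 CPM in TRF2 MuSC-cKO MuSCs, with 6 of 8 lower. The summed myeloid markers were 108 to 138 CPM and 140 to 220 CPM, with 0 of 8 tested called by edgeR and 1 at an unadjusted p under 0.05. Dcn, a fibroadipogenic marker, and Rgs5, a pericyte marker, were higher, and Dpt was lower. The part of these cells in the E2F and RB values was not tested.

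The fourth comparison set the genotypes against each other at 3 DPI. None of 35 replication genes tested, and none of the 14559 genes tested in all (0%), was called by edgeR. At an unadjusted p under 0.05, 0 of the 35 were higher and 3 lower, where 5.78% and 3.58% of all genes were. DESeq2, limma-voom and limma's robust fit called 0 of the 35. Of all genes they called, in that order, 0.0343%, 0% and 0.0687% higher and 0.117%, 0% and 0.124% lower. The estimate was below 0 for 27 of the 35, against 49.9% of all genes, with a median log2 fold change of -0.47 against 0.00, and 7 had lower libraries without overlap, against 4.87% of all genes. All 41 genes without the filter gave a median of -0.52, against -0.06 over all genes. Of 26 mitosis genes 21 also had estimates below 0, with a median of -0.42. Of 42 further replication genes tested 23 did, with a median of -0.12.

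The smallest p-value was that of Mcm4, at 77.2, 78.8, 80.7 and 73.2 CPM in control and 42.1, 24.2, 14.9 and 11.7 CPM in the libraries labelled TRF2 MuSC-cKO. The groups did not overlap, and the adjusted p-value did not pass (log2 fold change -1.69 ± 0.42, 95% interval -2.60 to -0.78, adjusted p = 0.452). Without replicate 3 of the libraries labelled TRF2 MuSC-cKO the estimate was -1.55 (adjusted p = 0.0712). The other MCM genes had estimates from -1.44 for Mcm7 to -0.13 for Mcm5. Among licensing genes, Gmnn was at 12.4 to 33.7 CPM in control and at 16.4, 13.8, 8.68 and 26.8 CPM in the libraries labelled TRF2 MuSC-cKO, with overlap.

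Orc6 was not tested in this contrast because of low counts. It was at 20.1, 36.0, 15.7 and 8.23 CPM in control and at 1.17, 9.23, 1.24 and 0 CPM in the libraries labelled TRF2 MuSC-cKO, where replicate 2 reached the control range. Rrm1 was at 65.4, 45.0, 80.6 and 55.9 CPM in the libraries labelled TRF2 MuSC-cKO, against 80.3 to 106 CPM in control, which touched at the edge (log2 fold change -0.57 ± 0.29, adjusted p = 0.551). Uhrf1 was at 66.6, 48.4, 78.1 and 36.1 CPM against 53.1 to 109 CPM (-0.47 ± 0.35). Rpa1 was at 39.7, 46.1, 47.1 and 21.0 CPM against 40.2 to 104 CPM, with overlap (-0.69 ± 0.41, 95% interval -1.59 to 0.21), and its estimate without replicate 3 was -0.84, at an unadjusted p of 0.0323 from edgeR.

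The estimates of Pole and Gins2 were near 0. Pole was at 46.7, 54.2, 65.7 and 58.3 CPM in the libraries labelled TRF2 MuSC-cKO and 46.9 to 71.8 CPM in control (log2 fold change -0.01, 95% interval -0.69 to 0.66). Gins2 was at 11.7, 11.5, 19.8 and 36.1 CPM against 17.7 to 26.3 CPM (-0.13, 95% interval -1.30 to 1.05). Both intervals hold changes of over 1.5 times in both directions, and the test does not show that the levels are alike.

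Without replicate 3, 38 genes were tested, 0 were called by edgeR, where 0.0194% of all genes were higher and 0.0843% lower. At an unadjusted p under 0.05, 0 were higher and 11 lower, against 6.21% and 6.50% of all genes, among them Mcm2, Mcm3, Mcm4, Mcm7, Orc6, Rrm1 and Rrm2. The estimate was then below 0 for 24 of 38, against 48.3% of all genes, with a median of -0.29, and 8 had lower libraries without overlap, against 6.57% of all genes. The medians of the mitosis genes and of the further replication genes were then -0.26 and -0.29. In this contrast the summed MuSC markers were 741 to 1066 CPM in control and 369 to 604 CPM in the libraries labelled TRF2 MuSC-cKO, and the summed myeloid markers 5309 to 6773 CPM and 2306 to 6208 CPM. Without replicate 3 the lowest sums in the libraries labelled TRF2 MuSC-cKO were 439 and 4516 CPM. Their part in the genotype difference was not tested.

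**Figure D5:**
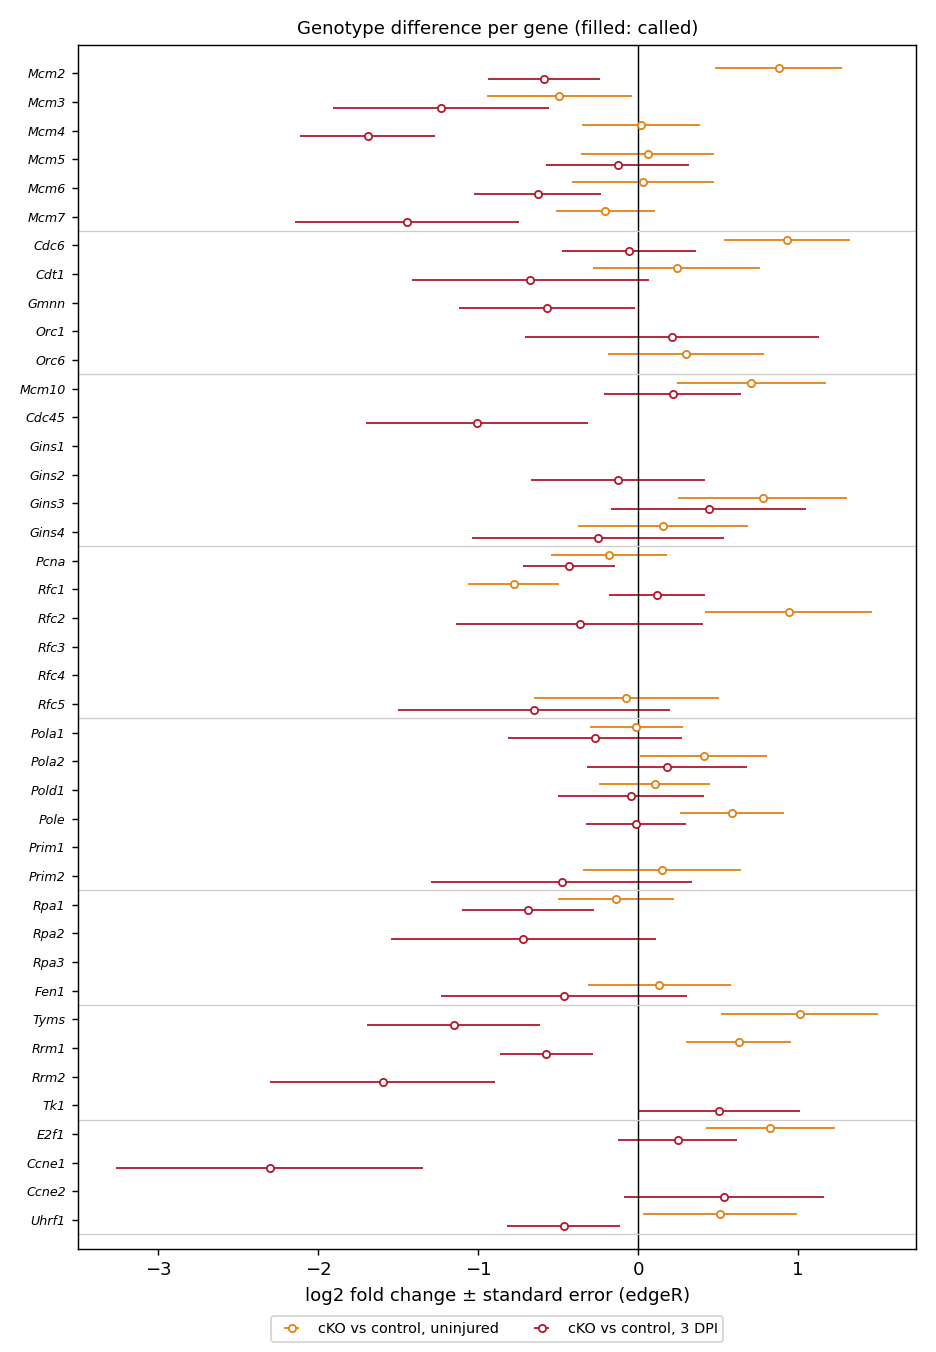
Log2 fold change of TRF2 MuSC-cKO over control for each tested gene, with its standard error, in uninjured MuSCs (orange) and at 3 DPI (red). No point is filled because no gene was called, and 27 of the 35 red points lie below 0.

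The last test asked whether the injury response of the replication genes differs between genotypes. In the fit of all 16 libraries none of 38 genes was called by edgeR, where 0% of the 16822 genes tested were called higher and 0.0178% lower. At an unadjusted p under 0.05, 1 of the 38 was higher and 7 lower, where 3.57% and 2.17% of all genes were. DESeq2 and limma-voom called 0, and limma's robust fit called 1, Orc6, lower. Of all genes these fits, in that order, called 0.0535%, 0% and 0.268% higher and 0.0892%, 0.0178% and 0.464% lower. The estimate was below 0, a smaller rise in TRF2 MuSC-cKO MuSCs, for 33 of the 38, against 48.4% of all genes, and the median was -0.52 against 0.04. Without the 3 DPI replicate 3 labelled TRF2 MuSC-cKO it was below 0 for 36 of 39, against 54% of all genes, with a median of -0.71 against -0.07. In that fit 0 were higher and 10 lower at an unadjusted p under 0.05, against 3.13% and 4.41% of all genes. So 20 genes called in control MuSCs and 0 in TRF2 MuSC-cKO MuSCs do not by themselves show a different response. Estimates from all 16 libraries were also below 0 for 22 of 26 mitosis genes and 29 of 44 further replication genes. Their medians were -0.39 and -0.34, and edgeR called 0 of either list. Without the 3 DPI replicate 3 labelled TRF2 MuSC-cKO these medians were -0.39 and -0.40. With all 16 libraries the estimate was below 0 for 11 of 12 myeloid markers (median -1.16) and 7 of 8 fibroadipogenic markers (median -0.76), with 0 called by edgeR and 6 and 1 lower at an unadjusted p under 0.05, and the median of the 8 MuSC markers was 0.18. Without the same library these medians were -1.07, -0.79 and -0.03. Their part in the shift of the replication genes was not tested.

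Orc6 had the smallest p-value of the 38 (difference of log2 fold changes -2.88 ± 1.03, 95% interval -4.99 to -0.76, adjusted p = 0.692), and without the 3 DPI replicate 3 it was at -2.75 (adjusted p = 0.357). Mcm4 (-1.63 ± 0.60), Mcm2 (-1.39 ± 0.56), Rrm1 (-1.13 ± 0.43) and Tyms (-2.08 ± 0.75) had intervals below 0 before adjustment. Rfc1 went the other way, with an interval above 0 (0.97 ± 0.46, 95% interval 0.03 to 1.91). Without the 3 DPI replicate 3 the interval of Rfc1 held 0 (0.77, 95% interval -0.08 to 1.63). Pcna (-0.16, 95% interval -1.15 to 0.83) and Mcm5 (-0.11, 95% interval -1.34 to 1.12) lay near 0 with wide intervals. Among the further genes, Cdkn1a was called, at -2.40 ± 0.32 (adjusted p = 9.4e-04) and at -2.61 without that library (adjusted p = 3.0e-06). Cdkn1a was at 124 to 211 CPM in control and 120 to 162 CPM in the libraries labelled TRF2 MuSC-cKO at 3 DPI.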

How the data were processed

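RNA of sorted MuSCs was sequenced in 16 libraries, 4 per group, with groups and replicate numbers from the sample records. The authors prepared libraries with the CORALL kit, and the submitters' processing notes name Trim Galore 0.6.7, STAR 2.6.1d, Salmon 1.5.2 and GRCm38. The deposited tables hold estimated counts per gene, one not normalized and used here, the other rescaled and used as an alternative. The kit adds molecular identifiers to reads, and whether reads were collapsed on them is not given in the sources used here. Estimated counts were rounded, filtered with filterByExpr, scaled by TMM and tested with edgeR 4.0.16 (R 4.3.3, robust quasi-likelihood) with Benjamini-Hochberg adjustment over all genes tested, each comparison on its own 8 libraries and the interaction on all 16. A call needed an adjusted p-value under 0.02 and a fold change over 1.5. Standard errors come from the fold change and its test statistic.

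The members and gene lists were chosen with earlier results of these data known. Named members are, per role, those of smallest p after injury in control MuSCs and of highest mean level, genes called between genotypes or in the interaction, and those of smallest p there. In the other lists they are the 3 of smallest p and those called, lower after injury or between genotypes. Mcm5, Mcm6, Mcm7, Rrm2, Tyms, Pola1 and further members given by estimate only were picked after their values were seen. Exon lengths, positions and overlaps came from GENCODE M21. The lowest ratio of chi-square to its expectation between replicates was 2.97, so no library was counted as a duplicate. Alternatives were limma 3.58.1 (robust, voom), DESeq2 1.42.0, other scalings and filters, all 16 libraries in 1 fit, a replicate block, the rescaled table, fits within 1 code of the sample records, and each library left out. The procedure was also run on simulated data, with a common spread for all genes and known changes placed only in genes of higher counts. Those runs do not cover the replication genes with low counts. Counting error covers reads only.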

Additional observations from a re-analysis of the deposited data

Results flagged for a closer look

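In 100 sets of 4 libraries examined for a value far from the other 3, chance alone flags about 1 in 20. Mcm2 was at 63.4 CPM in uninjured TRF2 MuSC-cKO replicate 2, with the others at 21.8 to 28.4 CPM. Mcm10 was at 37.9 CPM in control 3 DPI replicate 2, with the others at 23.2 to 24.7 CPM. Orc6 was at 9.23 CPM in replicate 2 of the 3 DPI libraries labelled TRF2 MuSC-cKO, with the others at 0 to 1.24 CPM. The summed Schwann and pericyte markers were at 400 CPM in uninjured control replicate 3, with the others at 279 to 296 CPM. The injury response of Cdkn1a differed between genotypes in the interaction test (-2.40 on the log2 scale).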

How the results depend on the processing

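The count of 20 replication genes higher after injury in control MuSCs was 12 with at least 10 counts in every library (17 genes tested), 7 with all 16 libraries in 1 fit, 11 in the rescaled table and 0 within 1 code of the sample records (1 uninjured against 2 injured libraries, the lone library assumed to vary like the others, with 8 genes at an unadjusted p under 0.05). It was 14 to 19 with 1 library left out and 17 to 22 under the other alternatives. After injury in TRF2 MuSC-cKO MuSCs the count of 0 became 1 of 30 under limma's robust fit (3.75% of all genes higher), 1 of 14 with at least 10 counts (6.66%) and 1 of 38 with all 16 libraries (4.29%). It was 0 to 3 with 1 library left out (1.39% to 5.16%). In the interaction limma's robust fit called 1 replication gene lower, against 0 in the main fit, where it called 0.464% of all genes lower. In both genotype comparisons all alternatives called 0. The replicate block gave 18 genes higher in control MuSCs, where 10% of all genes were higher, and 0 in the other comparisons. Same-numbered libraries did not deviate together (r = -0.116 to 0.113), so the numbers do not pair them.

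Signs turned in few named genes, none of them called: after injury in control MuSCs Orc6 (0.36) was -0.48 within 1 code and -0.116 to 0.628 with 1 library left out, lowest without control 3 DPI replicate 2. After injury in TRF2 MuSC-cKO MuSCs Mcm3, Cdc6 and Pole were -0.61, -0.17 and -0.061 within 1 code, whose 2 injured libraries include replicate 3, which stood apart, and Cdc6 (0.10) was -0.053 to 0.25 with 1 library left out, below 0 without 3 DPI replicate 2 (-0.053) and without uninjured replicate 1 (-0.031). The cause was not tested. Library size alone moved the median of all genes in uninjured MuSCs from 0.06 to 0.24. Low counts limit the tests of Gmnn, Cdc45, Gins1, Gins2, Orc1, Rfc3, Rfc4, Prim1, Rpa3 and Ccne1.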
